A study of Mus musculus with 208 samples.

Results

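The hair keratins, the keratins of the inner root sheath, trichohyalin and the keratin-associated proteins were examined in back skin and sebaceous glands (SGs) of mice with and without germ-free (GF) ancestry. Members were taken by symbol, namely every gene whose symbol starts with Krtap and a digit, Krt25 to Krt28, Krt31 to Krt36, Krt71 to Krt73, Krt81 to Krt86 and Tchh. The rule uses symbols only, but it was set with earlier results of these data known. The rule found 78 genes among the 38605 genes of the skin data and the same 78 among the 29929 of the SG data. They were 58 keratin-associated proteins, 7 type I hair keratins, 5 type II hair keratins, 4 type I and 3 type II keratins of the inner root sheath, and Tchh. Krt85, a hair cortex keratin, was not analysed here.

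All mice were labelled WT. By the study's methods the CR mice descended from C57BL/6 stock, the GF mice came from separate GF C57BL/6 colonies, and animals were 8 weeks old unless stated otherwise and of both sexes. Crosses for the skin mice were made in a conventional facility, so these F1 and F2 mice were colonised whatever their ancestry. For glands beyond F0, the paper's results describe pups of GF dams that were conventionalised while pregnant, so colonised from birth. Its methods name the captured F1 groups CR×CR and GF×GF. Skin came from F1 offspring of GF×GF parents (n = 3), of a GF male and a CR female (GF×CR, n = 3) and of conventionally raised (CR) parents (CR×CR, n = 5), and from F2 mice of the GF×GF (n = 3), GF×CR (n = 6) and CR×CR (n = 5) lines. SGs came from F0 GF (n = 3) and CR (n = 3) mice and from F1 GF×GF (n = 3) and CR×CR (n = 2) mice. The F2 lines were bred in 2 ways in the study. In one, F1 females were mated to new males, CR males for the CR×CR and GF×CR lines and GF males for the GF×GF line. The fathers of GF×GF F2 mice were then GF themselves. In the other, F1 mice were mated with each other. Neither the labels nor the methods say which way gave the sequenced skin. The labels give no sex, litter or hair cycle stage for any mouse.

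Hair is built by follicles that cycle through growth (anagen), regression (catagen) and rest (telogen). During growth the matrix makes a shaft of type I and type II hair keratins embedded in keratin-associated proteins, and around it an inner root sheath of Krt25 to Krt28 paired with Krt71 to Krt73. Trichohyalin (Tchh) fills the granules of the inner root sheath and the medulla and is cross-linked to the keratin filaments there. These genes are strongly transcribed in growing follicles of mouse skin and largely silent in resting ones, so their level serves as a sign of the hair cycle stage.

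The upstream sequences of 5 inner root sheath keratins are shown because Krt71, Krt25 and Krt27 are among the genes that set a single mouse apart in the values that follow, while their neighbours Krt26 and Krt28 were detected in every skin. Krt25, Krt26, Krt27 and Krt28 are direct neighbours among the protein-coding genes of RefSeq (GRCm38.p6), as are Krt71, Krt72 and Krt73. Each line holds the 100 bases before the RefSeq start site, 5′ to 3′ on the minus strand, with the TATAAA motif in capitals.
Krt71, chr15:101743098-101743197: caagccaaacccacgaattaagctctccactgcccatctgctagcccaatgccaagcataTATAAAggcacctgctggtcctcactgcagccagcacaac
Krt25, chr11:99322952-99323051: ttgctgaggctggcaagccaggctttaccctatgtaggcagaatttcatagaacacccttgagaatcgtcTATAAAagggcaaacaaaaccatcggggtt
Krt26, chr11:99337966-99338065: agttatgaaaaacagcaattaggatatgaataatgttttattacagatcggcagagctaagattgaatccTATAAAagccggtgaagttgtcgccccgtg
Krt27, chr11:99351119-99351218: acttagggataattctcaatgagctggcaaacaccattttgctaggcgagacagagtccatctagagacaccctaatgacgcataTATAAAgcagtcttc
Krt28, chr11:99374904-99375003: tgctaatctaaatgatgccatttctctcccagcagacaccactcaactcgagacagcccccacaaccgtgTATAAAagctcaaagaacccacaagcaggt

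Of the 78 genes, 66 matched a RefSeq promoter of 250 bases before to 50 bases after the start. The letters TATAAA stood on either strand in 54 of these 66 promoters (81.8%), against 4473 of all 32851 RefSeq promoters (13.6%). On the sense strand and between 50 and 16 bases before the start, they stood in 43 of the 66 (65.2%), against 2.32% of all promoters. The counts by role are for either strand and the whole promoter. The motif was found in 42 of 51 matched keratin-associated protein genes, 4 of 5 type I hair keratins and 1 of 2 type II hair keratins. It was also found in all 7 inner root sheath keratins, and not in the promoter of Tchh. The letters CTTTGA, the core that Lef1 and its relatives bind, stood on either strand in 21 of the 66 (31.8%), against 5257 of all 32851 RefSeq promoters. These matches describe the sequence, and no binding was measured.

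The skin libraries held about 11.3 to 24.7 M assigned reads. This was estimated from the commonest low value of each library in CPM (reads scaled to the same library total), taken as the step of 1 read. In skin 1 read was worth 0.0405 to 0.0887 CPM. SG libraries held 3.74 to 18.3 M. A gene was counted as having a read where its value reached 0.95 of that step, and 3 reads was taken as the floor. A pair of rows with identical values, Gm22405 and Gm26191, held 20.9% to 52.4% of all CPM of a skin library together, which lowers the CPM of every other gene. The mitochondrial ribosomal RNA mt-Rnr1 lay between 3591 and 11250 CPM in 22 skin libraries and at 60240 CPM in CR×CR F1 mouse 4, 32940 CPM in GF×GF F2 mouse 3 and 24120 CPM in GF×CR F2 mouse 4. These 3 libraries therefore stand apart, and results that rest on them are given with and without them.

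The hair genes were close to the detection limit in the skin of nearly every mouse. Their summed level was 7.67 to 20.3 CPM in 24 of the 25 skins, and 29.05 CPM in GF×GF F2 mouse 1. A read was found for 12 to 20 of the 78 genes in those 24 skins and for 34 in GF×GF F2 mouse 1. More than 3 reads were found for 7 to 10 genes in the 24 skins and for 19 in that mouse. Of the 78 genes, 25 had a read in no skin, all of them keratin-associated proteins, and 6 had more than 3 reads in all 25 skins. These 6 were Tchh, Krt26, Krt28, Krt35, Krt36 and Krtap3-2. In whole skin, fewer cells of a type and less RNA per cell cannot be told apart, and no skin with hair known to be growing was available for comparison.

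**Figure D1:**
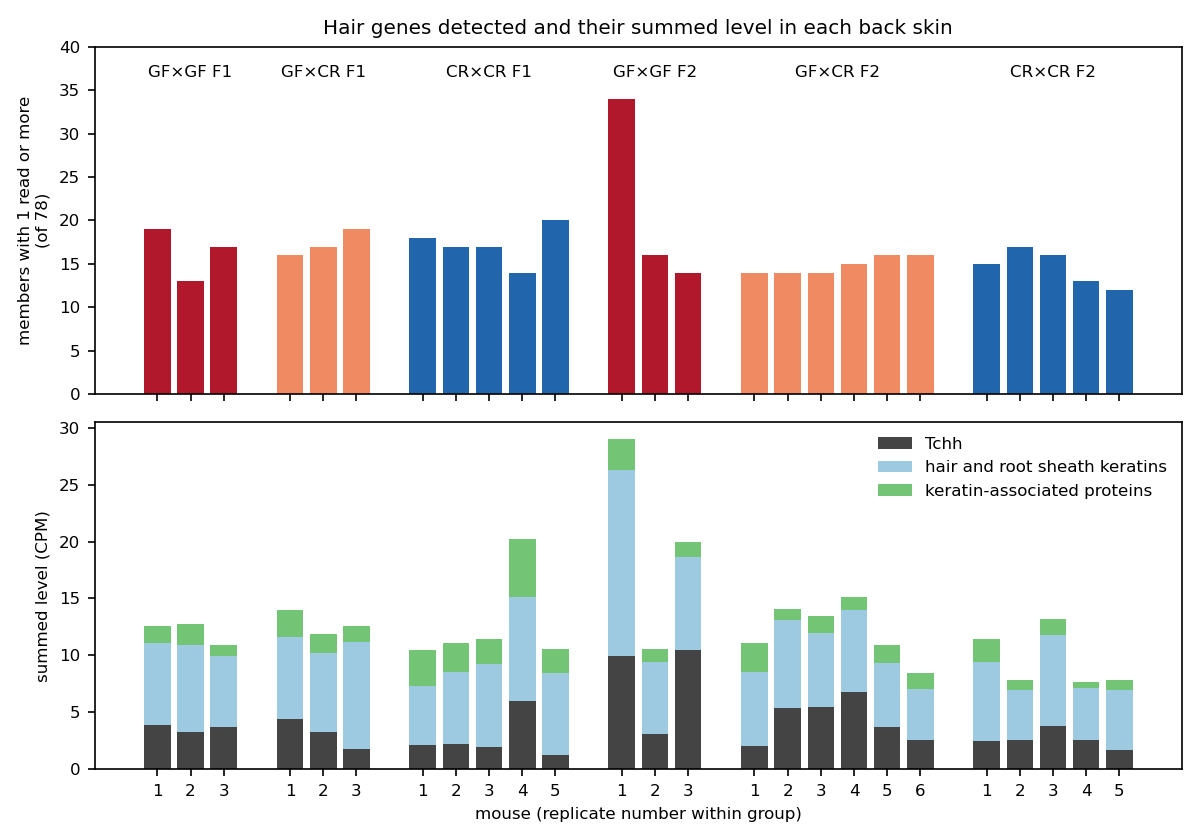
Number of the 78 hair genes with a read (upper panel) and their summed level in CPM (lower panel, stacked by Tchh, keratins and keratin-associated proteins) in each of the 25 back skins, by group and replicate number; red marks GF×GF, orange GF×CR and blue CR×CR. GF×GF F2 mouse 1 has 34 genes and 29.05 CPM, and the other skins have 12 to 20 genes and 7.67 to 20.3 CPM.

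Keratin-associated proteins, the sulphur- or glycine-rich matrix of the shaft, were the least detected. The 58 genes fall into 27 numbered families, and in 6 families no member had a read in any skin. Only Krtap3-2 passed 1 CPM in any skin, with a mean of 1.41 ± 0.913 CPM (SD, n = 25) and a range of 0.476 to 4.86 CPM. The leading members of the next families had means of 0.0479 CPM (Krtap1-5), 0.0434 CPM (Krtap17-1) and 0.0411 CPM (Krtap12-1), close to the worth of 1 read. The leading members of the other detected families had means of 0.00162 to 0.0278 CPM. Without Krtap3-2, the summed level of the family was 0.0952 to 0.732 CPM in the 24 skins and 1.82 CPM in GF×GF F2 mouse 1.

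Krt71, the type II keratin that defines the inner root sheath, was at 2.65, 0 and 0 CPM in the GF×GF F2 skins, against 0, 0, 0.0567, 0 and 0 CPM in the CR×CR F2 skins. The GF×GF F2 value rests on about 48 reads of a single mouse. In the other 24 skins of both generations Krt71 did not exceed 0.121 CPM, so that mouse did not overlap with any other. Krt71 failed the filter on low values in all skin comparisons and was not tested.

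Of the 7 sheath keratins, 5 had their highest value of the 25 skins in the same mouse, namely Krt71, Krt73, Krt25, Krt27 and Krt28. Krt25, a type I partner of Krt71, was at 2.03, 0.226 and 0 CPM in GF×GF F2 skins, against 0 to 0.113 CPM in the 5 CR×CR F2 skins. Krt27 was at 0.454 CPM and Krt73 at 0.441 CPM in GF×GF F2 mouse 1, while the next skin had 0.177 CPM of Krt27 and no other skin had a read of Krt73. Krt28 was at 1.71 CPM there, close to the 1.59 CPM of CR×CR F1 mouse 4. Krt26 and Krt72 did not follow, with 2.49 CPM of Krt26 there and up to 3.69 CPM in other skins, and 0 CPM of Krt72. The summed level of Krt25, Krt27, Krt71, Krt72 and Krt73 was 5.57 CPM in this mouse and 0 to 0.368 CPM in the other 24.

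Part of the shaft genes also had their highest value there, namely 5 of 7 type I hair keratins, 2 of 5 type II hair keratins and 9 of the 33 keratin-associated proteins with a read. Of these 9, only Krtap7-1, Krtap8-1 and Krtap11-1 had more than 3 reads there, and the rest had 1 or 2 reads. Krt35, a type I keratin of the hair matrix and cuticle, was at 2.10, 0.684 and 1.33 CPM in GF×GF F2 skins, against 0.541, 0.684, 1.37, 0.908 and 0.524 CPM in CR×CR F2 skins. Mouse 1 was above all 24 other skins, whose highest value was 1.41 CPM, and the other 2 GF×GF F2 mice lay within the CR×CR range. Krt33a, Krt33b, Krt34 and Krt81, keratins of the cortex, were at 0.395, 0.301, 0.289 and 0.331 CPM in mouse 1. In the other 24 skins none of these 4 exceeded the 3-read floor of its library. Krtap8-1 and Krtap7-1, of the glycine- and tyrosine-rich group, were at 0.386 and 0.331 CPM in mouse 1 and at or under 0.0913 CPM elsewhere. Krt31, Krt36, Krt82, Krt84 and Krt86 were not highest in this mouse, and its Krt36 level of 1.76 CPM lay below the median of the 25 skins, 1.94 CPM.

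Krt84, the type II hair keratin best known from the tongue and nail, had another pattern. It was at 0.110, 1.81 and 0.329 CPM in GF×GF F2 skins, against 0.0434 to 0.399 CPM in the 5 CR×CR F2 skins, and its highest value of the 25 skins was in GF×GF F2 mouse 2, not mouse 1. It failed the filter in skin and was not tested there.

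Of the 43 hair genes with a read in any of the 8 skins of the F2 GF×GF comparison, 24 had their highest value in GF×GF F2 mouse 1, while 11.7% of all 28199 genes with a read did. The other 7 mice were highest for 1 to 5 of the 43 genes each. The depth of this library was 18.1 M reads and its mt-Rnr1 level 5871 CPM, both within the range of the others. Over all 25 skins, 21 of the 53 hair genes with a read (39.6%) were highest in this mouse, while 3.29% of all 30251 genes with a read were. Some of these hair genes rested on 1 or 2 reads in this mouse, as given above. Krt33b, Krt73, Krtap7-1, Krtap8-1 and others had a read in no other skin of the F2 GF×GF comparison. They were counted only through this mouse, and their highest value had to be in it. The mouse was also singled out by these same genes, so both shares are a description. Of 25 regulators of the hair matrix, 2 were highest there, Hoxc13 and Msx2, and of 13 melanocyte genes 1 was, Tyr. Of 29 genes that act with the hair keratins 2 were highest there, and of 15 dermal papilla genes 1. None of 16 proliferation genes or 14 bulge and resting follicle genes was. Hoxc13, a transcription factor of the hair shaft, was at 1.99 CPM in this mouse and 0.217 to 1.96 CPM in the other 24, and Msx2, a homeobox factor of the matrix, was at 1.85 CPM, with 1.56 CPM in the next skin. Tyr, the tyrosinase of pigment synthesis, was at 2.32 CPM, with 2.09 CPM in the next skin. Lef1, a Wnt effector, was at 6.25 CPM and highest in another mouse. The summed level of the 25 regulators was 484.5 CPM in GF×GF F2 mouse 1, the highest of the GF×GF F2 skins. It was 347 to 484.5 CPM in GF×GF F2 skins and 302 to 521 CPM in CR×CR F2 skins. Proliferation genes summed to 324.0 CPM in GF×GF F2 mouse 1. They summed to 247.5 to 507.4 CPM in GF×GF F2 skins and 324.8 to 634.5 CPM in CR×CR F2 skins. Melanocyte genes, which are active in growing pigmented follicles, summed to 78.03 CPM in GF×GF F2 mouse 1. They summed to 56.9 to 108 CPM in GF×GF F2 skins, the highest in mouse 3, and 54.9 to 99.7 CPM in CR×CR F2 skins. Of 13 sebocyte markers, 4 were highest in this mouse (Awat1, Awat2, Mc5r and Far2), and their part in the result was not tested. The hair cycle stage of this mouse was not tested by any other measurement.

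**Figure D2:**
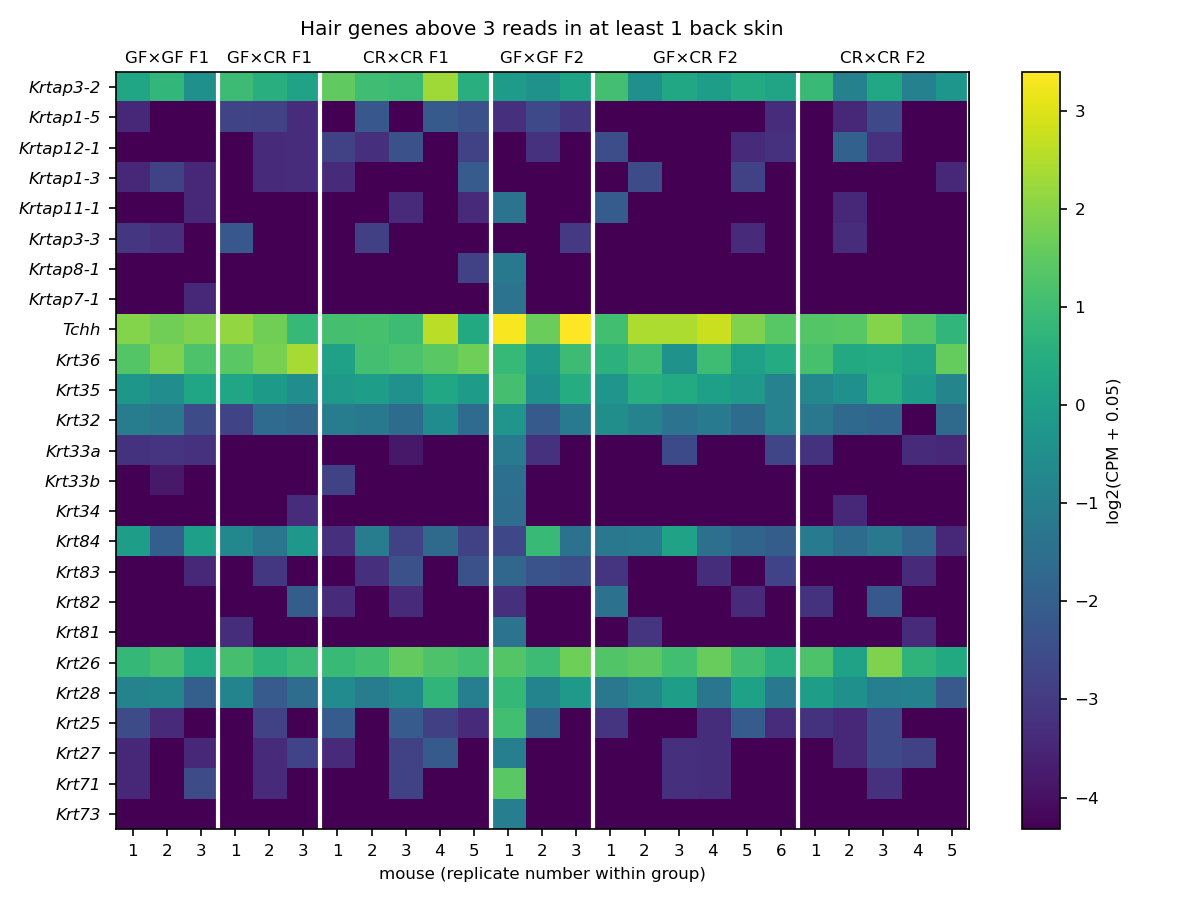
Level of each hair gene with more than 3 reads in at least 1 back skin, as log2(CPM + 0.05) by colour, in the 25 mice (columns, by group and replicate number). Krt71, Krt25, Krt27, Krt73, Krt33a, Krt33b, Krt34, Krt81, Krtap7-1 and Krtap8-1 are lighter in GF×GF F2 mouse 1 and at or near the lowest colour elsewhere.

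Ancestry was compared within each generation for the hair genes that reached 1 CPM in a number of mice no smaller than the smaller group, with limma on log2(CPM + 0.5). Only 4 or 5 of the 78 genes passed this filter in skin, so the comparisons say nothing about the rest. No hair gene passed an adjusted p of 0.05 by limma in any of the 4 skin comparisons. The same CR×CR mice serve both comparisons of a generation, so these are not independent.

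In F2 skin of the GF×GF line, Tchh was at 9.96, 3.08 and 10.48 CPM, against 2.47, 2.58, 3.82, 2.56 and 1.65 CPM in CR×CR F2 skin. GF×GF F2 mice 1 and 3 were above every CR×CR mouse and mouse 2 lay within their range, so the groups overlap. The log2 fold change was 1.29 (SE 0.369), with p = 0.00387 and an adjusted p of 1.00 in limma. Of the 5 genes tested, 0 passed the adjusted threshold, which 0.0418% of all 16752 genes did. By the threshold the study used for skin (unadjusted p below 0.05 and a log2 change of over 1 in size), Tchh was the single hair gene, and 0.537% of all genes passed. An unadjusted p under 0.05 was reached by the same 1 of 5 hair genes and by 1.75% of all genes, and 0 of 5 had groups without overlap, against 1.4%. Mouse 1 is the one with Krt71 and Krt25, and mouse 3 is the library with 32940 CPM of mt-Rnr1 and has no read of Krt71, Krt25 or Krt27. The log2 fold change was 1.04 (p = 0.0283) without mouse 1, 1.82 (p = 4.2e-05, adjusted p = 0.0516 by limma) without mouse 2 and 1.01 (p = 0.0225) without mouse 3. The part of mt-Rnr1 in this difference was not tested.

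The other 4 tested genes of that comparison gave log2 fold changes of 0.49 (Krt35, SE 0.324), 0.37 (Krt26, SE 0.337), 0.039 (Krtap3-2, SE 0.324) and -0.14 (Krt36, SE 0.327). Krt26, a type I sheath keratin, was at 2.49, 1.92 and 3.16 CPM in GF×GF F2 skin, against 1.04 to 3.69 CPM in CR×CR F2 skin. Krt36, a type I hair keratin, was at 1.76, 0.847 and 1.91 CPM in GF×GF F2 skin, against 1.09 to 2.91 CPM in CR×CR F2 skin. Apart from Tchh these differences were within the spread between mice.

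In F2 skin of the GF×CR line, Tchh was at 2.05, 5.403, 5.46, 6.78, 3.73 and 2.58 CPM, against 1.65 to 3.82 CPM in the 5 CR×CR F2 skins listed above. In all, 3 of the 6 GF×CR mice were above all CR×CR mice, the highest being mouse 4 with 24120 CPM of mt-Rnr1. The log2 fold change was 0.57 (SE 0.281, p = 0.0619, adjusted p = 1.00 in limma's moderated test) and 0.43 (p = 0.145) without mouse 4. Leaving out each mouse in turn gave 0.43 to 0.73, with p from 0.0144 to 0.156. None of the 4 tested genes passed the adjusted threshold or an unadjusted p of 0.05 in limma, where 0% and 2.22% of 16430 genes did. None passed the study's threshold (0.231% of all genes) or had groups without overlap (0.237%). Krtap3-2, Krt26 and Krt36 gave log2 fold changes of 0.29 (SE 0.267), 0.21 (SE 0.266) and -0.22 (SE 0.259).

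In F1 skin of GF×GF parents, Tchh was at 3.84, 3.23 and 3.70 CPM, against 2.12, 2.18, 1.92, 5.995 and 1.23 CPM in CR×CR F1 skin. All 3 GF×GF mice were above 4 of the 5 CR×CR mice and below mouse 4, the library with 60240 CPM of mt-Rnr1 and the fewest reads. The log2 fold change was 0.51 (SE 0.353, p = 0.173, adjusted p = 0.591 by limma) with that mouse, 0.81 (p = 0.00364, adjusted p = 0.67) without it and 0.33 (p = 0.345) without CR×CR mouse 5. Krtap3-2 was at 1.11, 1.68 and 0.683 CPM in GF×GF F1 skin, against 2.81, 1.98, 1.855, 4.86 and 1.37 CPM in CR×CR F1 skin. The groups overlap, the log2 fold change was -0.84 (SE 0.338, p = 0.0306, adjusted p = 0.557 by limma), and it was -0.61 (p = 0.0507) without CR×CR mouse 4, -0.61 (p = 0.136) without GF×GF mouse 3 and -1.06 (p = 0.0186) without GF×GF mouse 2. Of the 4 genes tested, 0 passed the adjusted threshold, against 0.09% of all 16668 genes, and 1 had an unadjusted p under 0.05, against 8.93%. None passed the study's threshold (0.75% of all genes) or had groups without overlap (6.5%). Krt26 and Krt36 gave -0.31 (SE 0.216) and 0.32 (SE 0.284). The median over all genes was -0.20.

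In F1 skin of GF×CR parents, Krt36 was at 2.64, 3.45 and 5.19 CPM, against 1.03, 2.06, 2.25, 2.66 and 3.15 CPM in CR×CR F1 skin, with a log2 fold change of 0.66 (SE 0.299, p = 0.0501, adjusted p = 0.705 by limma). It was 0.43 (p = 0.218) without GF×CR mouse 3 and 0.86 (p = 0.0292) without GF×CR mouse 1. Krtap3-2 was at 1.89, 1.41 and 1.03 CPM in GF×CR F1 skin and gave -0.58 (SE 0.324, p = 0.0996), or -0.36 (p = 0.192) without CR×CR mouse 4. Tchh was at 4.39, 3.24 and 1.76 CPM and gave 0.28 (SE 0.393), or 0.58 (p = 0.0721) without CR×CR mouse 4, and Krt26 gave -0.20 (SE 0.205). Of these 4 genes, 0 passed the adjusted threshold and 0 an unadjusted p of 0.05 in limma, against 0.0537% and 7.08% of all 16761 genes. None passed the study's threshold (0.74% of all genes) or had groups without overlap (4.5%).

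**Figure D3:**
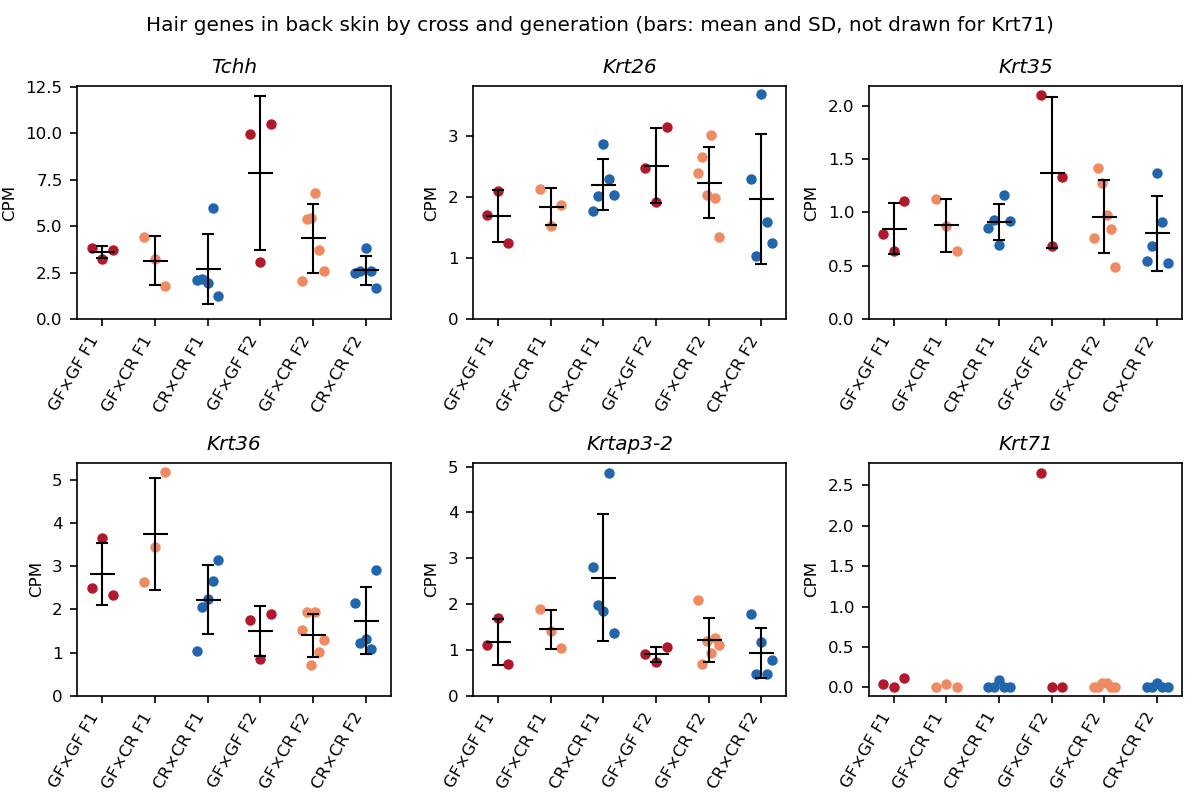
Level in CPM of 6 hair genes in each mouse (points) by cross and generation, with the group mean and SD as bars for all but Krt71. Tchh is highest in GF×GF F2 mice 1 and 3 at 9.96 and 10.48 CPM, and Krt71 lies at or near 0 in every mouse but GF×GF F2 mouse 1 at 2.65 CPM.

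Genes that act with the hair keratins or mark other compartments were counted from 13 lists of 193 genes. By limma, 0 of 166, 166, 167 and 162 tested genes passed the adjusted threshold in the F1 GF×GF, F1 GF×CR, F2 GF×GF and F2 GF×CR comparisons. With an unadjusted p under 0.05, 1 was higher and 15 lower in F1 GF×GF skin, 4 higher and 25 lower in F1 GF×CR skin, 6 higher and 1 lower in F2 GF×GF skin, and 11 higher and 1 lower in F2 GF×CR skin. These are 9.64%, 17.5%, 4.19% and 7.41% of the list genes tested, against 8.93%, 7.08%, 1.75% and 2.22% of all genes, and the median log2 fold change of all genes in F1 GF×GF skin was -0.20. Tbx1, a transcription factor of follicle stem cells, averaged 1.76 CPM in GF×GF F1 skin and 3.63 CPM in CR×CR F1 skin, with a log2 fold change of -0.87 (p = 0.000637, adjusted p = 0.292 by limma).

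The sign of the epidermis marker list differed between the generations, and Tchh was listed higher in all 4 comparisons. None of these interfollicular epidermis markers passed the adjusted threshold in limma. Their median log2 fold change was 0.30 in F2 GF×GF and 0.50 in F2 GF×CR skin, and -0.38 in F1 GF×GF and -0.63 in F1 GF×CR skin, and their summed level was 4703 to 6990 CPM in GF×GF F2 skins against 3086 to 6262 CPM in CR×CR F2 skins. CR×CR F1 mouse 4, with the highest Tchh of its group, had 9403 CPM of them, against 3662 to 5459 CPM in the other 4 CR×CR F1 mice. Skeletal muscle markers, from the muscle layer under the skin, summed to 7073 to 18850 CPM over the 25 skins. The part of either in the levels of the hair genes was not tested.

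Each SG library pooled many glands captured from sections, and F0 GF mice came from sterile isolators. Krt28, a type I sheath keratin, was at 20.7, 16.2 and 23.7 CPM in F0 GF glands, against 20.9, 20.8 and 19.9 CPM in F0 CR glands. In F1 glands it was at 33.2, 46.6 and 34.2 CPM in GF×GF mice, against 27.4 and 25.7 CPM in CR×CR mice. In whole skin it lay between 0.174 and 1.71 CPM. Krt36 was the reverse, with 0 CPM in 10 of the 11 glands and 0.0545 CPM in the other, against 0.709 to 5.19 CPM in skin. Glands and skin stand in separate tables and were captured, fixed and prepared in other ways, so no test was made between them.

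Tchh was at 13.7, 14.5 and 9.61 CPM in F0 GF glands, against 22.2, 12.4 and 11.9 CPM in F0 CR glands, and Krt32, a cuticle keratin, at 4.69, 3.86 and 4.75 CPM against 1.91, 10.02 and 4.25 CPM. Krt71 was at 0.843, 1.08 and 0 CPM in F0 GF glands, against 0.454, 0 and 0.212 CPM in F0 CR glands. These values rest on 5 reads or fewer, and Krt71 was not tested in glands. Of the 78 genes, 47 had a read in no gland and 4 had more than 3 reads in all 11. The glands' summed sebocyte markers were 30080 to 43780 CPM, against 1154 to 5209 CPM in skin, and their skeletal muscle markers 1.72 to 69.98 CPM, the highest in F0 GF gland 1. Bulge and resting follicle markers summed to 1119 to 2654 CPM in glands and 357 to 853 CPM in skin, and their part in the gland levels was not tested.

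No hair gene passed an adjusted p of 0.05 by limma in glands. In F0 glands 0 of 6 tested genes passed it, against 2.2% of all 14889 genes, and 0 had an unadjusted p under 0.05, against 19.8%. None passed the skin threshold of the study (5.02% of all genes) or had groups without overlap (24.9%). Their log2 fold changes were -0.04 (Krt28, SE 0.196), -0.25 (Tchh, SE 0.296), -0.38 (Krt84, SE 0.474), -0.10 (Krt26, SE 0.359), -0.066 (Krt82, SE 0.396) and -0.0073 (Krt32, SE 0.505). In F1 glands 0 of 7 passed it, against 0.717% of all 15058 genes, and Krt28 alone had an unadjusted p under 0.05, against 12.2%. None passed the skin threshold of the study (4.08% of all genes). Krt28 gave 0.49 (SE 0.210, p = 0.0466, adjusted p = 0.402 by limma), and its groups did not overlap, as for 30.2% of all genes with 3 and 2 mice. With Y-linked genes as a covariate the value of Krt28 was -0.022. The Y-linked sums of these groups do not overlap, at 56.5 to 64.6 CPM in GF×GF and 74.9 to 90.7 CPM in CR×CR glands. That covariate therefore cannot be separated from the cross here. Without GF×GF gland 2, Krt28 gave 0.34 (p = 0.148 by limma). The other 6 gave between -0.43 (Krtap3-2, SE 0.596) and 1.10 (Krt26, SE 0.642). Without CR×CR gland 2, Krt26 gave 2.06 (p = 0.0101, adjusted p = 0.225 by limma) and Krt84 1.86 (p = 0.0452, adjusted p = 0.318), both past the study's skin threshold. Without CR×CR gland 1 they gave 0.15 and -0.12. Each of these leaves 1 CR×CR gland, which is assumed to vary like the others.

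**Figure D4:**
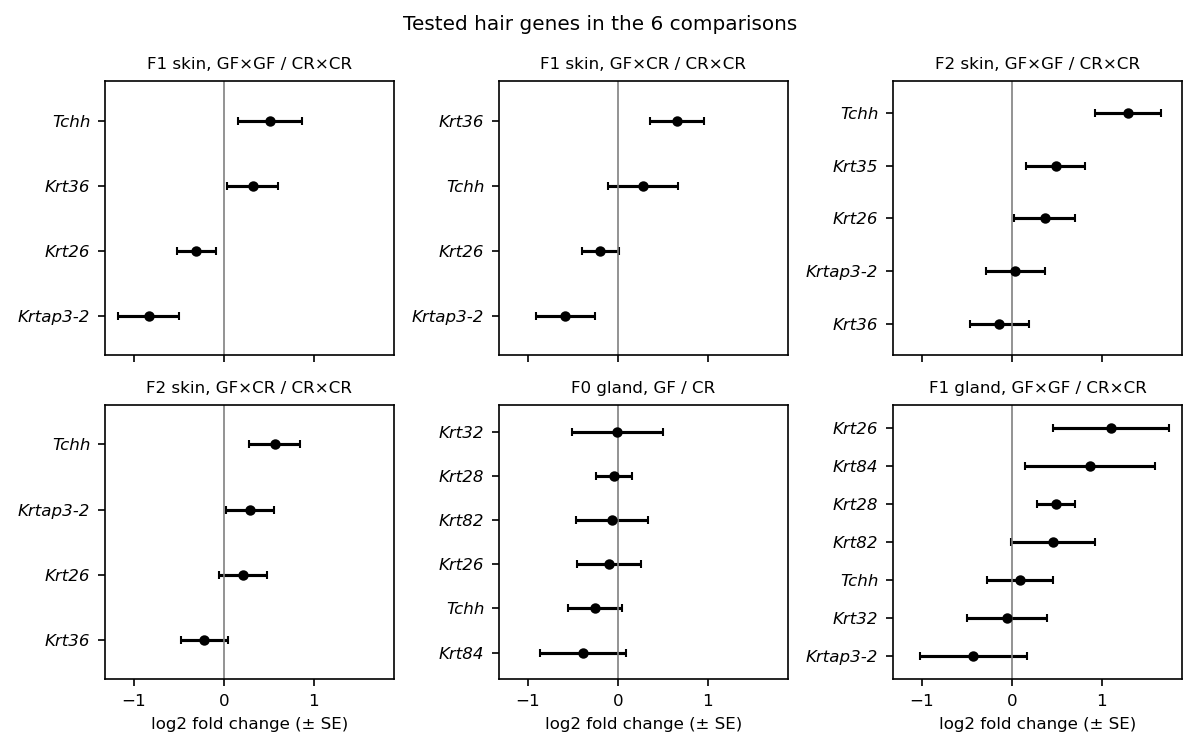
Log2 fold changes with their standard errors for each tested hair gene in the 6 comparisons, on the log2(CPM + 0.5) scale, positive where the mice with GF ancestry were higher. Tchh in F2 GF×GF skin lies farthest from 0 at 1.29, and no gene passed an adjusted p of 0.05.

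**Figure D5:**
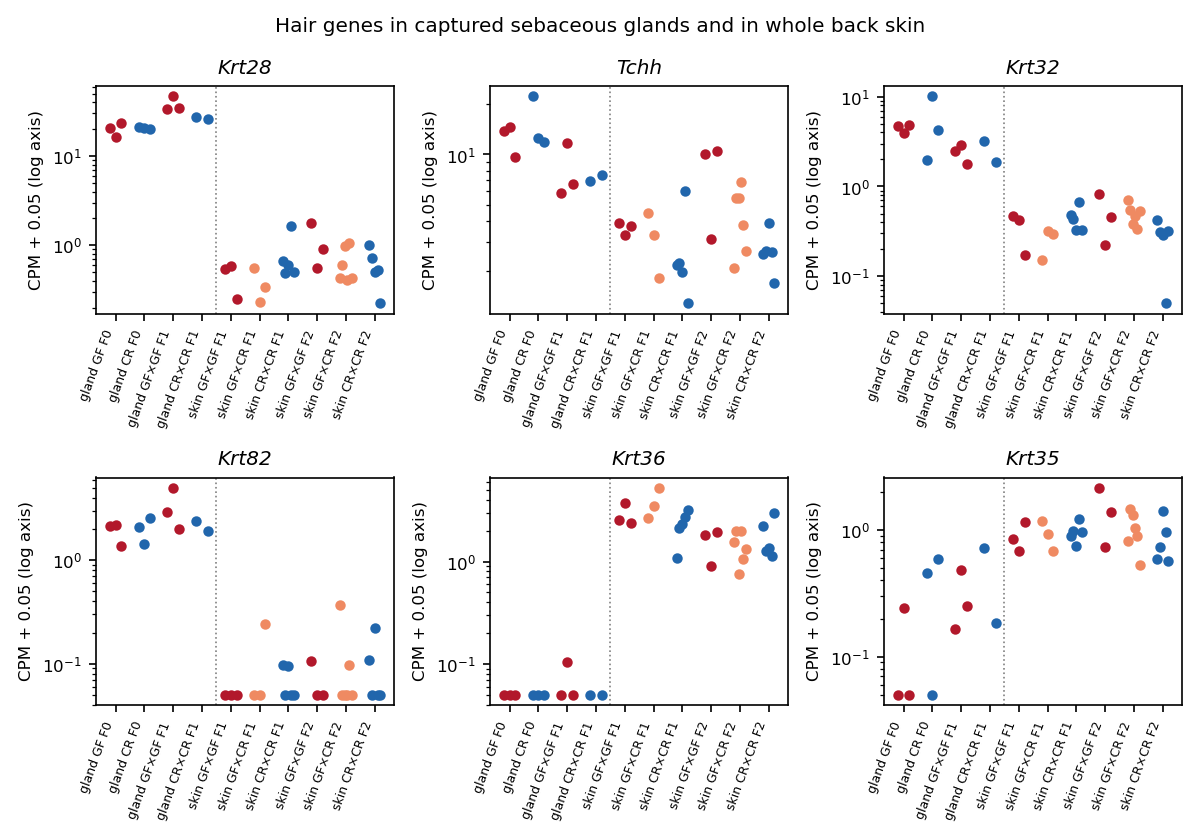
Level (CPM + 0.05, log axis) of 6 hair genes in each of 11 captured glands (left of the dotted line) and 25 back skins, by group. Krt28 lies at 16.2 to 46.6 CPM in glands and 0.174 to 1.71 CPM in skin, and Krt36 is at 0 in 10 of 11 glands.

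In F0 glands 12 of 149 list genes tested (8.05%) passed the adjusted threshold by limma, 3 higher and 9 lower in GF, against 2.2% of all genes. In F1 glands 2 of 147 (1.36%) did, both higher in GF×GF, against 0.717%. The lists were chosen with earlier results known, so these shares are a description. Fibroblast markers summed to 6660 to 13240 CPM in F0 GF glands and 4743 to 7440 CPM in F0 CR glands. Sebocyte markers summed to 30080 to 38100 CPM in F0 GF glands and 36290 to 43780 CPM in F0 CR glands. The captured tissue may thus differ in its make-up, and its part in the differences below was not tested. In F0 GF glands Padi4, a peptidylarginine deiminase, was lower at 57.5 ± 2.51 CPM, against 125 ± 17.1 CPM in CR glands (SD, n = 3 each; log2 fold change -1.11, adjusted p = 0.00846 by limma). Prdm1, a transcriptional repressor of sebocyte and follicle lineages, was lower at 121 ± 9.73 CPM, against 200 ± 29.5 CPM (log2 fold change -0.72, adjusted p = 0.0323 by limma). The 3 higher genes were Awat2, a wax synthase of sebocytes (log2 fold change 1.09), Ccna2, a cyclin (0.82), and Krt5, a keratin of basal cells (0.79). Awat2 and Krt5 went against most called genes of their lists. The sebocyte list had 1 gene higher and 3 lower, with a median log2 fold change of -0.23. The interfollicular epidermis list had 1 higher and 3 lower, with a median of -0.49. In F1 GF×GF glands Mki67, a marker of cycling cells, was higher at 303 ± 52.7 CPM (n = 3), against 146 ± 10.8 CPM in CR×CR glands (n = 2; log2 fold change 1.04, adjusted p = 0.0397 by limma).

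The genes outside the 78 whose level followed the mean of the hair genes most closely, by the mean Pearson r over the 4 skin tables of 8 or 11 mice, were Amotl2 (0.86), Gm25835 (0.84), Akap5 (0.83), Pkib (0.83) and BC068157 (0.82), of 16290 genes. These tables share CR×CR mice, libraries and depth, and the values are a description.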

How the data were processed

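Stranded libraries of total RNA without ribosomal RNA were made from frozen back skin and from SGs dissected with a laser out of paraffin sections of back skin. The CPM values are as deposited by the authors, who assigned reads to Ensembl genes with Kallisto in R 4.2, and the version of Kallisto and the genome build are not given in the sources used here. Their later filter, scaling and voom step are not in these values, and voom was not run here because CPM are not counts. Each table lost 27 rows that carried a date in place of a symbol. Differences were computed on log2(CPM + 0.5), a scale that understates the change of low genes, by limma 3.58.1 under R 4.3.3 with a mean-dependent prior variance. Tables were never mixed in a test. A gene entered if it reached 1 CPM in a number of samples equal to the smaller group or more, and p-values were adjusted by the Benjamini-Hochberg method over all genes entered, with 0.05 as the threshold. The procedure was tested on simulated data, in which only genes above a minimum mean level were changed and all genes had the same set dispersion. That test therefore does not cover the lowest hair genes or those that vary most between mice. Depth was estimated from the commonest low value of each library, so that read numbers are approximate and floors cover counting error only. The labels list the mice as separate samples and do not give their parents. For its sebum measurements the paper reports few breeding pairs per group and F2 mice of the same litter. Some of the sequenced mice may therefore be siblings, and the tests treat them as independent. P-values measure the spread between these samples only.

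The members and the gene lists were chosen with earlier results of these data known. Named with values are Tchh, Krt71 and Krt35, the tested members, the leading member of each family, up to 4 genes of smallest p in a list and the 5 genes most like the members' mean. Krt25, Krt27, Krt28, Krt73, Krt33a, Krt33b, Krt34, Krt81, Krtap7-1, Krtap8-1, Krtap11-1, Hoxc13, Msx2, Tyr, Awat1, Awat2, Mc5r, Far2, Lef1, Krt31, Krt72, Krt82 and Krt86 in skin were named after their values were seen. Alternatives changed the pseudocount (0.1 or 1), the filter (none, or 5 CPM), the scaling (median ratios) or the weights of the libraries, added the Y-linked level or the replicate number to the model, or left out each mouse.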

Additional observations from a re-analysis of the deposited data

Results flagged for a closer look

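Among the 5 CR×CR F1 skins, mouse 4 lay far above the other 4 in the level of Tchh (5.995 CPM, others 1.23 to 2.18 CPM), of Krt28 (1.59 CPM, others 0.435 to 0.608 CPM) and in the summed level of the 78 hair genes (20.27 CPM, others 10.46 to 11.41 CPM). This is the library with 60240 CPM of mt-Rnr1 and 11.3 M reads. Among the 6 GF×CR F2 skins, mouse 3 lay far above the others in Krt84, a type II hair keratin (1.04 CPM, others 0.192 to 0.406 CPM). The limit for a mouse to count as far from the others was a 95% critical value, which by its construction about 1 in 20 groups exceeds by chance. In all 54 checks were made, and they include comparisons between generations, to which this limit and rate do not apply. Krt32 was on average 0.187 CPM lower than the CR×CR mean in F1 GF×CR skin (a difference of -0.187 CPM), with every GF×CR mouse below it, and 0.219 CPM higher in F2 GF×CR skin, with every mouse above it; the difference between the generations was not tested.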

How the results depend on the processing

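With array quality weights Tchh passed the adjusted threshold, so that 1 hair gene was called in F1 GF×GF skin (0.75, adjusted p = 0.0477 by limma) and 1 in F2 GF×GF skin (1.65, adjusted p = 0.00455 by limma); these weights called 2377 and 662 genes in all, against 15 and 7 without them. At the study's skin threshold 1 hair gene, Krtap3-2, passed in F1 GF×GF skin with a pseudocount of 0.1, and leaving out each mouse gave 0 to 1. With the filter at 5 CPM no hair gene was tested in any skin comparison, Tchh included, so that setting gave no count in skin. In skin at both thresholds, and in glands at the adjusted one, every remaining alternative left the counts of hair genes called as they were. Directions turned for genes that passed no threshold. With array quality weights Krt36 gave 0.28 in F2 GF×GF skin and Krt32 0.094 in F0 glands, and with a pseudocount of 0.1 Krt32 gave 0.018 there. With Y-linked genes as a covariate Krtap3-2 gave -0.022 in F2 GF×GF skin, Krt26 0.062 and Krt28 0.20 in F0 glands, and Krt28 -0.022, Krt26 -1.11, Krt84 -1.98, Krt82 -0.61 and Tchh -1.05 in F1 glands. In F1 glands the Y-linked sums of the groups do not overlap, so that covariate cannot be separated from the cross there. The replicate numbers did not pair the mice, as no comparison had every pair's correlation above 0.1. With the replicate block Krtap3-2 gave -0.15 in F2 GF×GF skin and Krt32 0.10 in F1 glands, and no count of hair genes called changed. Leaving out each mouse gave -0.080 to 0.13 for Krtap3-2 and -0.29 to 0.13 for Krt36 in F2 GF×GF skin; in F0 glands -0.52 to 0.54 for Krt32, -0.41 to 0.030 for Tchh, -0.26 to 0.019 for Krt26, -0.25 to 0.11 for Krt82, -0.16 to 0.11 for Krt28 and -0.78 to 0.068 for Krt84; in F1 glands 0.15 to 2.06 for Krt26, -0.12 to 1.86 for Krt84, -0.38 to 0.27 for Krt32 and -0.20 to 0.28 for Tchh. The cause was not tested. Most hair genes rest on a few reads, so only large differences would be seen.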
